A study of Mus musculus with 21 samples.

Results

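The 9 genes described here belong to the non-collagen extracellular matrix or its assembly: Fn1, Thbs1, Thbs2, Sparc, Postn, Tnc, Fbn1, Lox and Serpinh1. These 9 genes, of 19304 protein-coding genes of at least 2 kb, were listed by name, and they were chosen because Fn1 and Thbs1 kept the most cover in a knockout line called KO line 1 below. The cover of KO line 1 is therefore given as a description without a test. The measure was trimethylation of lysine 36 of histone H3 (H3K36me3) in C2C12 cells, mouse myoblasts that fuse into myotubes when growth factors are withdrawn. It was read by chromatin immunoprecipitation and sequencing (ChIP-seq). Cover is the percent of a gene body, from the first to the last annotated base, that lies inside the peaks called in a library.

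The wild type (WT) was sampled in 5 conditions with 2 replicates apiece: at day 0, and at day 1 and day 5 of differentiation either in control medium or with methionine restricted. A pair of Setd2 knockout lines, KO line 1 and KO line 2, had 1 library each in the same conditions, so no KO value has a replicate. How the lines were made, and whether a line is a single clone, is not given in the sources used here. The labels do not say that WT replicates came from separate cultures, so p-values measure only the spread between these libraries, which may be technical. A smaller share of cells with the mark and less mark per cell cannot be told apart in such libraries.

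H3K36me3 is laid down over the bodies of genes as RNA polymerase II passes, and SETD2 is the main enzyme that adds the third methyl group. Its methyl groups come from S-adenosylmethionine, which cells make from methionine. The matrix genes divide by role. Fn1 encodes fibronectin, the adhesive glycoprotein that cells bind through integrins. Thbs1 and Thbs2 encode thrombospondins, secreted proteins that tune adhesion and, for Thbs1, TGF-beta activation. Serpinh1 (HSP47) is a chaperone of procollagen in the endoplasmic reticulum, Sparc binds collagen outside the cell, and Lox crosslinks collagen and elastin. Tnc and Postn encode tenascin C and periostin, matrix proteins of growing and healing tissue. Fbn1 encodes fibrillin-1, the backbone of microfibrils.

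The WT lists held 63423 to 87398 peaks over 110 to 183 Mb, those of KO line 1 held 791 to 64530 peaks and those of KO line 2 held 127 to 13880. The restricted day 1 library of KO line 1 stood apart with 791 peaks over 0.307 Mb. That of KO line 2 was likewise the shortest of its line, with 127 peaks over 0.00821 Mb, beside 3625 to 13880 peaks in its other libraries. Mean cover ranks of members in KO line 1 are given with and without its restricted day 1 library, and other summaries of that line include it. Depth is unknown, because a peak list carries none, so no counting interval can be given. Restricted WT lists covered less (110 to 134 Mb) than control lists of the same days (140 to 183 Mb). Cover of Setd2 itself was 45.6% to 82.8% over the 10 WT libraries, 0% to 24.04% over those of KO line 1 and 0% in all 5 of KO line 2. That reads the mark over Setd2 and not the edit. Of 8 myoblast markers, Des (83.9% and 89.1%), Cdh15, Chrna1 and Myod1 were at least 50% covered in both WT day 0 libraries. Of 10 myotube markers, 8 were at 0 in each WT day 0 library, while Ttn was at 81.5% and 61.2%, and 9 had at least 50% cover in each WT library of control day 5.

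The promoters of a pair of members with like patterns from each side of the results are shown, because the text below asks how far the mark reached toward the start of these genes. Serpinh1 and Sparc kept cover in KO line 1 and had the most alike values of any pair of members, and Thbs2 and Tnc did not keep it and were each other's nearest member. Sequences are from RefSeq on the build GRCm38.p6, minus strand, 5′ to 3′, and end on the base before the annotated start. The stretches are chr7:99353240-99353489 for Serpinh1, chr11:55420081-55420330 for Sparc, chr17:14694263-14694512 for Thbs2 and chr4:64047016-64047265 for Tnc. Capitals mark matches, on either strand, to a TATA box (TATAAA), a GC box (GGGCGG) or an E box (CANNTG), the letters bound by MyoD and its relatives in muscle cells.
Serpinh1: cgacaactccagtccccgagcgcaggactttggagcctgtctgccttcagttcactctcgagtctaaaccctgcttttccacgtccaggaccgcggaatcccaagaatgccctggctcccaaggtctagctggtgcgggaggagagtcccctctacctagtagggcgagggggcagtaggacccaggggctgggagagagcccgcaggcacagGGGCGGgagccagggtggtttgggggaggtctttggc
Sparc: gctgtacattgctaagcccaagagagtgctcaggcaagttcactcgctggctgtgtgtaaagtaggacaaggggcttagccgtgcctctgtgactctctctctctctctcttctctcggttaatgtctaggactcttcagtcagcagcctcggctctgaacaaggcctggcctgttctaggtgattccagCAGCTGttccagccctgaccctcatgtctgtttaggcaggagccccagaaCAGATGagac
Thbs2: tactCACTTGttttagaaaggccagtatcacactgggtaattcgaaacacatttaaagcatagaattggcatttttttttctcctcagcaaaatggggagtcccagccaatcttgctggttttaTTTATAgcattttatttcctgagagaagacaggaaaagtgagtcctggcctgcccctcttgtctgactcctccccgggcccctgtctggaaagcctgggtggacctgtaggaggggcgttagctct
Tnc: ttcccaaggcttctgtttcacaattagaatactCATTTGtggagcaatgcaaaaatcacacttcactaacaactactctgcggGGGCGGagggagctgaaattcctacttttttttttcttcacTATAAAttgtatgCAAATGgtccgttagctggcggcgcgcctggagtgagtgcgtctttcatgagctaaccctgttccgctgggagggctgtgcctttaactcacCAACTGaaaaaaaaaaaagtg

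The letters of Serpinh1 hold 1 GC box, beginning 37 bases before the start, and none of the other letters marked. Sparc holds 2 E boxes ahead of its start and no TATA or GC box. Thbs2 holds 1 E box and a TATA match on the opposite strand ahead of its start, and Tnc holds a GC box, a TATA match and 3 E boxes. Searches used windows of 300 bases (250 before the start and 50 after it). Of 32851 such RefSeq windows, 13.6% held TATAAA, 35.7% held GGGCGG and 72.3% held CANNTG, so a match is a description of letters. AP-1 (TGANTCA, in 7.81% of windows), CRE (TGACGTCA, 1.79%), TEAD (GGAATG, 14.7%) and the CArG box (1.63%) were searched as well and had no match in the 8 windows of the 6 members that have one. None of these 8 windows was touched by a peak in any of the 10 WT libraries or the 5 of KO line 1, while 1.68% to 3.58% of all windows were in a WT library.

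Fn1 was covered almost end to end in every WT library. The gene spans chr1:71585473-71653280 (67.8 kb). Its WT cover was 97.96% and 97.8% at day 0, 97.7% and 97.9% at control day 1, 95.2% and 93.9% at restricted day 1, 97.97% and 98.1% at control day 5, and 94.6% and 95.1% at restricted day 5. The 4 restricted libraries were below the other 6 without overlap. The differences were small, with −3.22 points ± 1.35 (SE) at day 1 (limma with Benjamini-Hochberg adjustment, adjusted p = 0.0927) and −3.16 ± 1.35 at day 5 (adjusted p = 0.0881), and neither passed. Both passed as lower on the arcsine scale (adjusted p = 0.0128 and 0.00984) and without restricted day 1 replicate 1 (0.0481 and 0.0401), and the day 5 difference also without restricted day 1 replicate 2 (0.0428). A single peak over the gene was called in 8 of the 10 WT libraries, and the widest peak was 47.2 to 70.4 kb. Cover this near its ceiling can miss a change in the mark. The authors' fold enrichment of the strongest peak was 5.68 and 5.995 at control day 1 and 4.96 and 4.62 at restricted day 1. At day 5 it was 6.19 and 5.98 in control and 5.57 and 5.84 in restricted cells. The 5 kb flank at the lower coordinates went from 60.6% and 76.5% to 12.8% and 17.5% at day 1, and overlapped between media at day 5.

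In KO line 1, Fn1 was covered to 90.1% at day 0, 95.4% at control day 1, 9.003% at restricted day 1, 98.8% at control day 5 and 97.4% at restricted day 5. Only the library of 791 peaks was low. The mean of 78.2% was the highest of the 19304 genes, and without that library it was 95.4% and again the highest. At day 0 the cover was broken into 7 peaks, the widest 14.7 kb, while a single peak spanned it at day 5, of 67.2 kb in control medium and 66.1 kb with methionine restricted. KO line 2 had no peak in Fn1 in any of its 5 libraries.

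Thbs1, at chr2:118111876-118127133 (15.3 kb), was next to Fn1 in KO line 1. WT cover was 93.4% and 96.1% at day 0, 92.2% and 89.9% at control day 1, 83.8% and 76.6% at restricted day 1, 94.5% and 92.4% at control day 5, and 80.8% and 85.7% at restricted day 5. Restricted and control libraries did not overlap on either day. The cover fell by 10.9 points ± 2.87 (SE) at day 1 (limma, adjusted p = 0.0179) and by 10.2 ± 2.87 at day 5 (adjusted p = 0.0193). Both calls were lost when the WT lists were shortened to one covered length (adjusted p = 0.170 and 0.0706), and that of day 1 when only the libraries compared were fitted (0.0522). They were also lost without single libraries: at day 1 without control replicate 1 (adjusted p = 0.0947), control replicate 2 (0.0508) or restricted replicate 2 (0.0931), and at day 5 without control replicate 1 (0.112), control replicate 2 (0.0536) or restricted replicate 1 (0.127).

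In KO line 1, Thbs1 was covered to 75.5% at day 0, 91.2% at control day 1, 28.4% at restricted day 1, 91.9% at control day 5 and 94.6% at restricted day 5. The restricted day 5 value was above both WT libraries of that condition. The mean of 76.3% ranked 2 of 19304 genes and fell to rank 8 without the restricted day 1 library (88.3%). Col1a2 (76.3%), Rpl3 (73.6%) and Slc38a2 (73.1%) followed in the ranking over 5 libraries. KO line 2 had no peak in Thbs1.

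Thbs2, its relative at chr17:14665500-14694262 (28.8 kb, minus strand), lost cover as WT cells differentiated and was nearly bare in 4 libraries of KO line 1. WT cover was 88.0% and 88.1% at day 0, 72.9% and 83.8% at control day 1, 78.1% and 62.1% at restricted day 1, 45.6% and 44.0% at control day 5, and 50.8% and 52.0% at restricted day 5. From day 0 to day 5 in control medium it fell by 43.3 points ± 5.57 (SE, limma adjusted p = 0.000584), with both day 5 libraries below both day 0 libraries. Restriction left it 8.25 points ± 5.57 lower at day 1 (adjusted p = 0.278, and 0.0403 without restricted replicate 1) and 6.64 ± 5.57 higher at day 5 (adjusted p = 0.362). The day 5 difference became a called rise when the lists were shortened to one covered length (19.9 points, adjusted p = 0.00979). After each library was centred on its median, a scaling that shifts every gene up, it was 23.3 points against a median of 7.52 over all genes.

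KO line 1 covered 3.12%, 0.994%, 0%, 4.76% and 57.9% of Thbs2 at day 0, control day 1, restricted day 1, control day 5 and restricted day 5. The restricted day 5 library was thus the only one of the line with broad cover of Thbs2, and it lay above both WT libraries of its condition. That cover rested on weak peaks: with only peaks of −log10 q of at least 3 it was 2.82%. In that library 29.2% of the 5 kb downstream of the gene and 24.6% of the 5 kb upstream were covered too, while no WT library had upstream cover.

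Among the proteins that handle collagen, Serpinh1 lost the most cover under restriction at day 1 of all members tested. The gene lies at chr7:99345375-99353239 (7.87 kb, minus strand). WT cover was 87.9% and 88.2% at day 0, 87.6% in both control libraries of day 1, 54.9% and 49.5% at restricted day 1, 86.4% and 87.1% at control day 5, and 59.5% and 56.2% at restricted day 5. All 4 restricted libraries were below all other WT libraries. The cover fell by 35.4 points ± 2.88 (SE) at day 1 (limma, adjusted p = 7.35e-05) and by 28.9 ± 2.88 at day 5 (adjusted p = 0.000118). KO line 1 covered 74.1% at day 0, 75.6% at control day 1, 0% at restricted day 1, 97.9% at control day 5 and 87.8% at restricted day 5. Its day 5 values were above both WT libraries of the same condition, and its day 0 and control day 1 values were below them.

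Sparc, at chr11:55394159-55420080 (25.9 kb, minus strand), moved much like Serpinh1: their cover differed by a mean of 4.14 points over the 20 libraries. WT cover was 90.9% and 89.0% at day 0, 89.3% and 90.9% at control day 1, 71.1% and 63.4% at restricted day 1, 91.0% and 87.6% at control day 5, and 65.6% and 67.2% at restricted day 5. Again the restricted libraries did not overlap the others. The cover fell by 22.9 points ± 2.99 (SE) at day 1 (limma, adjusted p = 0.000634) and by 22.9 ± 2.99 at day 5 (adjusted p = 0.000468). In KO line 1 it was 75.7% at day 0, 78.2% at control day 1, 2.01% at restricted day 1, 87.6% at control day 5 and 82.8% at restricted day 5. KO line 2 had no peak in Sparc or Serpinh1.

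Lox lies on chromosome 18 and spans 13.8 kb. WT cover was 78.3% and 67.1% at day 0, 51.7% and 58.3% at control day 1, 50.1% and 43.1% at restricted day 1, 78.7% and 80.3% at control day 5, and 45.7% and 38.3% at restricted day 5. The restricted libraries were below the control libraries on both days, narrowly at day 1 and widely at day 5. Under restriction the cover fell by 37.5 points ± 5.16 (SE) at day 5 (limma, adjusted p = 0.000619), the largest of the tested members' differences at that day, while the day 1 difference was −8.43 ± 5.16 (adjusted p = 0.233, and 0.0334 with peaks within 1 kb joined). The difference between the days was −29.1 points ± 7.29 (adjusted p = 0.0610) and did not pass, though it did in 5 of 19 alternative settings, centring on the median (adjusted p = 0.0314) and leaving out day 0 replicate 1 (0.0391) or replicate 2 (0.0388) among them.

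KO line 1 covered 71.6% of Lox at day 0, 52.3% at control day 1, 0% at restricted day 1, 88.9% at control day 5 and 91.2% at restricted day 5. At restricted day 5 that was above both WT values, with the widest such gap among the members. The control day 1 value rested on weaker peaks: with only peaks of −log10 q of at least 3 it was 18.7%. The 5 kb flank at the higher coordinates was covered in this line to 14.5%, 8.06%, 0%, 30.1% and 57.5% in the same order of conditions, and in no WT library. KO line 2 had 10.6% of that flank covered at day 0. KO line 2 had 1 peak in Lox, which covered 1.82% of it at control day 5.

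Tnc, at chr4:63959785-64047015 (87.2 kb, minus strand), was broadly covered in WT and nearly bare in both KO lines. The annotated gene 8030451A03Rik overlaps 71.4% of it, and cover of the shared part cannot be assigned to either gene. WT cover was 91.5% and 82.7% at day 0, 71.5% and 76.3% at control day 1, 76.9% and 67.96% at restricted day 1, 84.1% and 76.7% at control day 5, and 56.6% and 54.3% at restricted day 5. The media overlapped at day 1, where the difference was −1.44 points ± 4.53 (SE, limma adjusted p = 0.833). They did not overlap at day 5, where the cover fell by 24.95 points ± 4.53 (adjusted p = 0.00257). KO line 1 covered 0% to 7.05% of Tnc, and KO line 2 had single peaks on the last day (0.441% in control and 0.549% in restricted cells).

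Postn, at chr3:54359267-54391041 (31.8 kb, plus strand), had peaks only in WT libraries of day 5. Its cover was 19.5% and 20.1% at control day 5, 1.303% and 1.504% at restricted day 5, and 0% in the other 6 WT libraries and all 10 KO libraries. With a mean WT cover of 4.24% it was the member left out by the filter of 5%. Without the filter, which was 1 of the alternatives, it rose by 19.8 points ± 0.559 (SE) from day 0 to day 5 in control medium, and it fell by 18.4 ± 0.559 under restriction at day 5 (limma, adjusted p = 2.37e-06 and 5.67e-06). The model shares its spread over all WT groups, and 6 libraries at 0% add none. The SE and p-values of Postn thus rest partly on this floor and are not read as support.

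Fbn1, the longest member (chr2:125300594-125506485, 206 kb, minus strand), was the one member past the 5% filter that was called higher from day 0 to day 5. WT cover was 57.6% and 48.1% at day 0, 49.9% and 52.5% at control day 1, 42.2% and 33.3% at restricted day 1, 72.8% and 64.9% at control day 5, and 34.6% and 36.6% at restricted day 5. The rise was 16.01 points ± 5.07 (SE, limma adjusted p = 0.0470). It missed the threshold in 12 of 19 alternatives (adjusted p up to 0.232, and 0.0637 to 0.232 without single libraries of day 0 replicate 2, either control day 1, either control day 5 or either restricted day 5). Under restriction the cover fell by 33.3 points ± 5.07 at day 5 (adjusted p = 0.00105), and the day 1 difference was −13.5 ± 5.07 (adjusted p = 0.0666). The day 1 difference passed in 4 of 19 alternatives: with peaks within 1 kb joined (adjusted p = 0.0398), and without day 0 replicate 1 (0.0486), day 0 replicate 2 (0.0485) or restricted day 1 replicate 1 (0.0473). KO line 1 had no peak in Fbn1 at day 0 or day 1, 28.9% at control day 5 and 14.1% at restricted day 5. With only peaks of −log10 q of at least 3 the day 5 values were 16.3% and 1.56%.

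**Figure D1:**
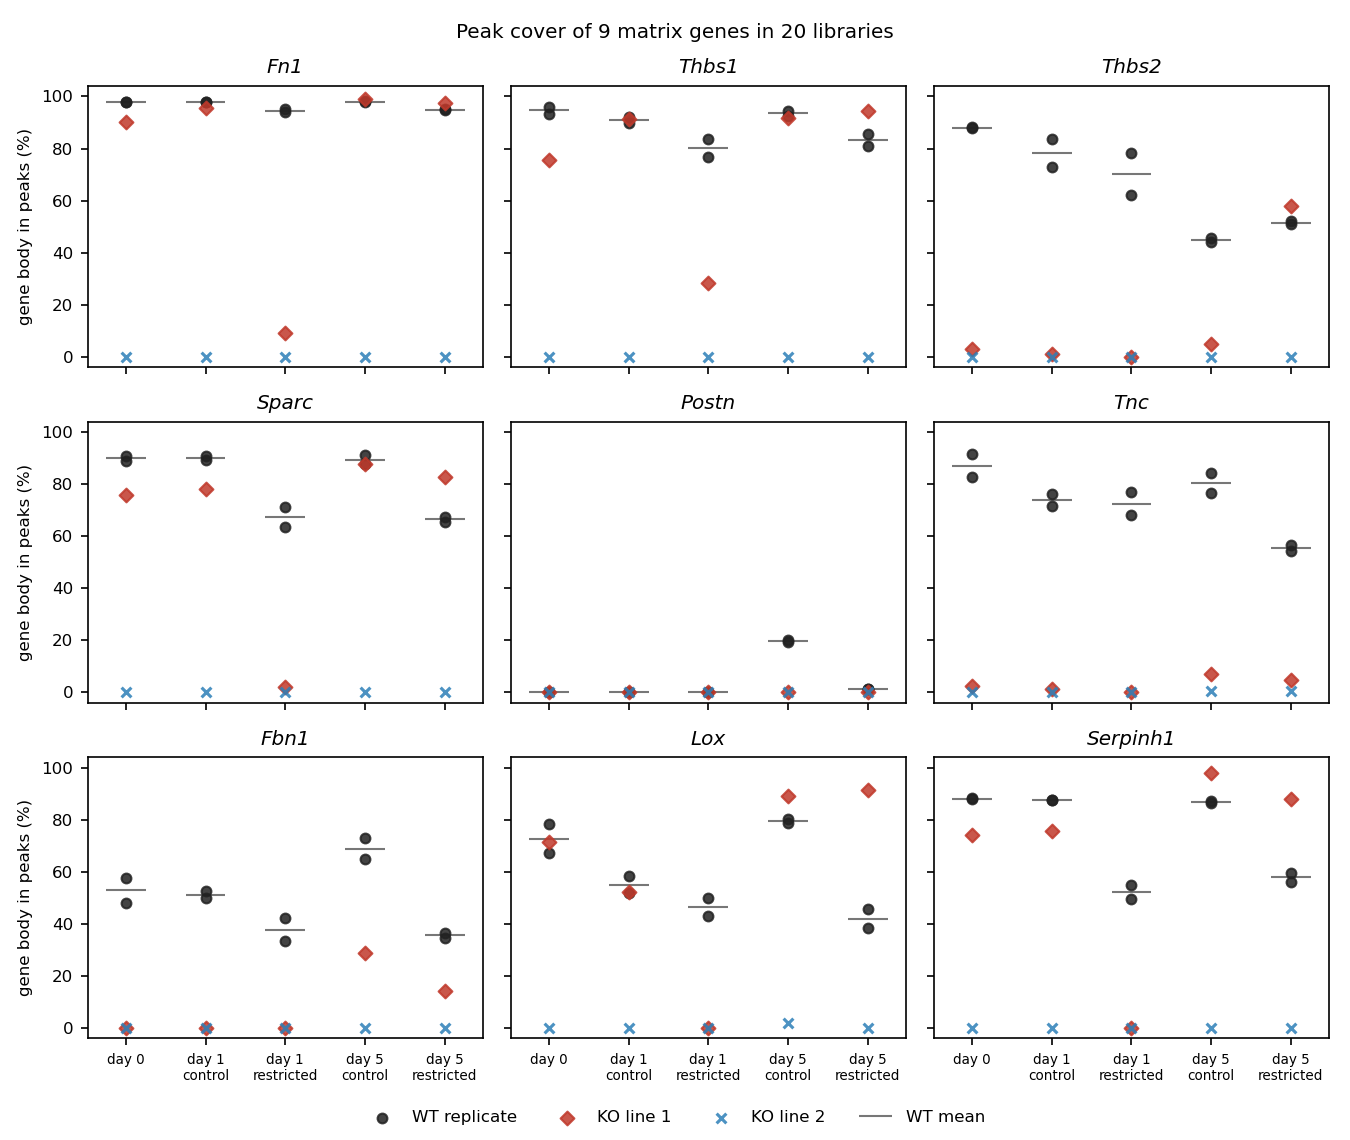
Percent of each gene body inside H3K36me3 peaks (y axis) in every library, by condition (x axis): circles are the 2 WT replicates with a grey line at their mean, diamonds KO line 1, crosses KO line 2. Fn1, Thbs1, Sparc, Lox and Serpinh1 are above 50% in 4 of 5 libraries of KO line 1, while Tnc, Fbn1 and Postn are below 30% in all of them.

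Restriction in WT was the contrast with the most calls among the members. At day 1, 3 of the 8 tested members (Thbs1, Sparc and Serpinh1) were called lower and 0 higher. Of all 9513 genes tested, 36.0% were called lower and 2.37% higher, so the members' share was near the background. At day 5, 6 of 8 (Thbs1, Sparc, Tnc, Fbn1, Lox and Serpinh1) were called lower and 0 higher, beside 41.5% and 4.34% of all genes. The members had a median of −9.65 points on day 1, where all genes tested had −7.99, and of −23.9 points on day 5, where all genes had −9.16. Muscle markers moved with restriction: at day 1, 7 of 10 myotube and 6 of 7 tested myoblast markers were called lower, and at day 5, 9 of 10 (median −58.4 points) and 7 of 7 (median −30.2 points). Myog and Myod1 were at 0 in all 4 restricted WT libraries. Their part in the result was not tested.

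Because most genes had less cover under restriction, the members were also read after each library was centred on its median. Centring turned the split over all genes from 225 called higher and 3421 lower at day 1 to 3518 higher and 1245 lower, and at day 5 from 413 and 3946 to 3757 and 1395. Centring adds a single constant to every gene in a contrast, and it left the median of all genes at 7.20 points at day 1 and 7.52 at day 5, so centred values are read against those medians. After centring, Serpinh1 (−20.2 and −12.3 points at day 1 and day 5) and Sparc (−7.67 and −6.22) were lower on both days. Lox (−20.9), Fbn1 (−16.6) and Tnc (−8.27) were lower at day 5. Fn1 turned to 11.96 and 13.5 points (limma, adjusted p = 0.00362 and 0.00173), above the medians of all genes, and Thbs1 to 4.32 and 6.44, not called and below those medians. Since Fn1 was near the ceiling of cover in both media, its centred value is mostly the added constant and is not read as a gain. Tnc at day 1 turned to 13.8 points higher (adjusted p = 0.00545).

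**Figure D2:**
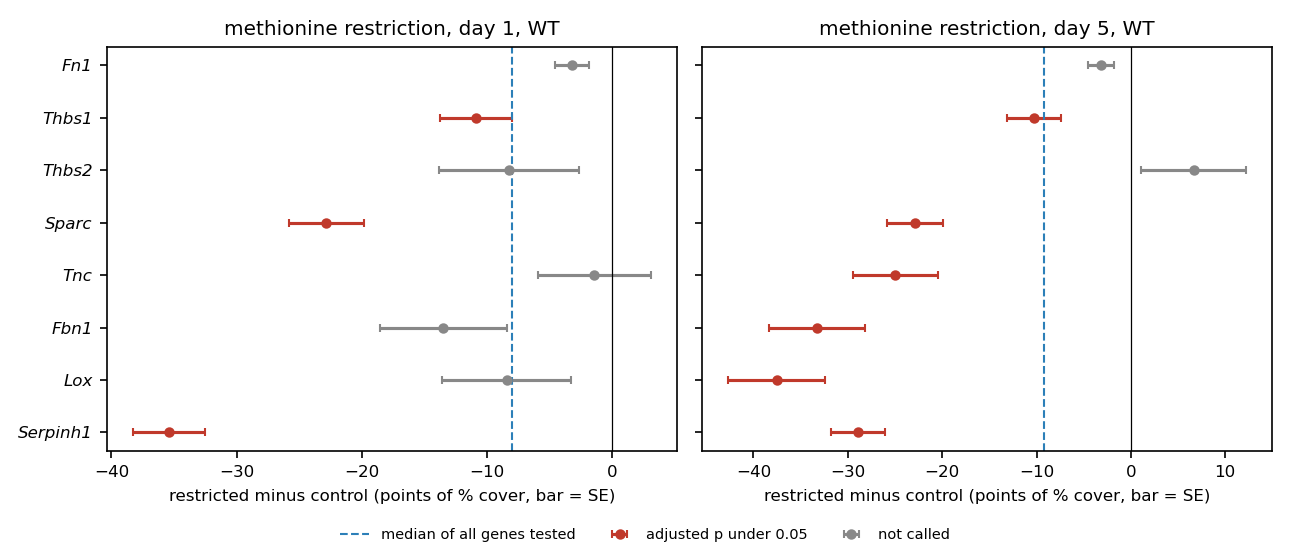
Difference in cover between restricted and control medium in WT at day 1 (left) and day 5 (right), in points of percent cover, with bars of 1 SE from limma; red marks adjusted p under 0.05, grey the rest, and the dashed line is the median of all 9513 genes tested. Serpinh1 and Sparc lie far left of the median on both days, and Lox, Fbn1 and Tnc at day 5, where Thbs2 lies right of 0.

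The change with time in control medium touched fewer members. From day 0 to day 1, 0 of 8 passed with limma, where 0.967% of all genes were called higher and 5.72% lower. Tnc (−13.2 points ± 4.53) and Lox (−17.7 ± 5.16) had an unadjusted limma p under 0.05, 0.0184 and 0.00843. Without day 0 replicate 2 Lox passed (adjusted p = 0.0401), and with lists of one covered length Thbs2 did (0.0154). From day 0 to day 5, Fbn1 was called higher and Thbs2 lower, beside 12.2% and 15.6% of all genes. In the test of restriction at day 5 minus restriction at day 1, 0 of 8 passed with limma (1.62% of all genes higher and 3.60% lower), and Lox, Tnc and Fbn1 had an unadjusted p under 0.05 (0.00370, 0.00587 and 0.0238). Tnc passed with stricter peaks (adjusted p = 0.0381) and after centring (0.0183). Fn1 and Sparc kept nearly the same restriction difference on both days, 0.0612 points ± 1.91 and −0.0463 ± 4.22 apart.

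In Serpinh1 and Sparc much of the cover lost under restriction lay toward the 5′ end. In Thbs2 parts near the 5′ end also dropped at day 1, but parts 2, 3 and 4 kept most of their cover. Each gene body was cut into 10 equal parts from 5′ to 3′ for the 6 members with a strand in the RefSeq promoter table, and values are means of 2 WT replicates. In Serpinh1 parts 2, 3 and 4 were covered to 75.9%, 100% and 100% at control day 1 and to 0%, 0% and 3.56% at restricted day 1. At day 5 control cells had 67.6%, 100% and 100% in these parts and restricted cells 0% in all 3. In Sparc the second part went from 100% to 0% at day 1 and from 91.1% to 0% at day 5. Parts 6 to 8 of both genes remained at 93.9% or more in all 5 conditions.

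The 3′ side was also trimmed in Serpinh1. The 5 kb downstream of the gene were covered to 52.9% to 88.5% in the 6 unrestricted WT libraries and to 12.5% to 24.6% in the 4 restricted ones. The last part of the body was at 20.9% at restricted day 1, against 100% in control medium, and at 100% in both media at day 5.

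In Thbs2 the largest drop at day 1 was in part 7, from 89.9% to 50.9%. Part 4 went from 100% to 76.5%, and parts 1, 2 and 3 went from 1.98%, 87.2% and 94.0% to 0.12%, 72.8% and 82.2%. At day 5 its part 1 was at 0% in both media and part 3 was at 42.9% in control and 54.8% in restricted cells.

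The long genes lost cover at the 5′ end too, though not there alone. In Fbn1 the first part went from 58.3% in control medium to 4.27% under restriction at day 5, while part 8 went from 94.3% to 78.3%. The last parts of Fbn1 thinned as well, part 9 from 88.7% to 52.4% and part 10 from 88.9% to 45.4%. In Tnc the first 3 parts went from 53.1%, 46.0% and 40.4% to 2.98%, 6.79% and 3.05% at day 5, part 8 from 93.9% to 54.4%, and part 10 from 96.9% to 95.1%. Tnc had lower values in these first 3 parts already at control day 1 (32.7%, 27.9% and 10.4%) than at day 0 (60.0%, 59.2% and 59.3%). The mark is thin at the 5′ end of most genes: over all marked genes with a strand, the first part had a mean cover of 15.02% in WT day 0 replicate 1.

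KO line 1 had a like gap at the 5′ end at day 0. In Serpinh1 its first and second parts were at 0% at day 0 and control day 1, but at 79.0% and 100% at control day 5. In Sparc the second part was at 27.0% at day 0, 54.9% at control day 1 and 100% in both day 5 libraries. Both genes thus had cover nearer to the start at control day 5 in KO line 1 than in WT, where the first part of Serpinh1 was at 0% in all 5 conditions and that of Sparc at 16.7% at most. In Thbs2 of the restricted day 5 library the first part was at 38.5% in KO line 1, within its weak peaks, and 0% in WT. Fn1, Thbs1 and Lox have no strand in the tables used, so their ends are not named.

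**Figure D3:**
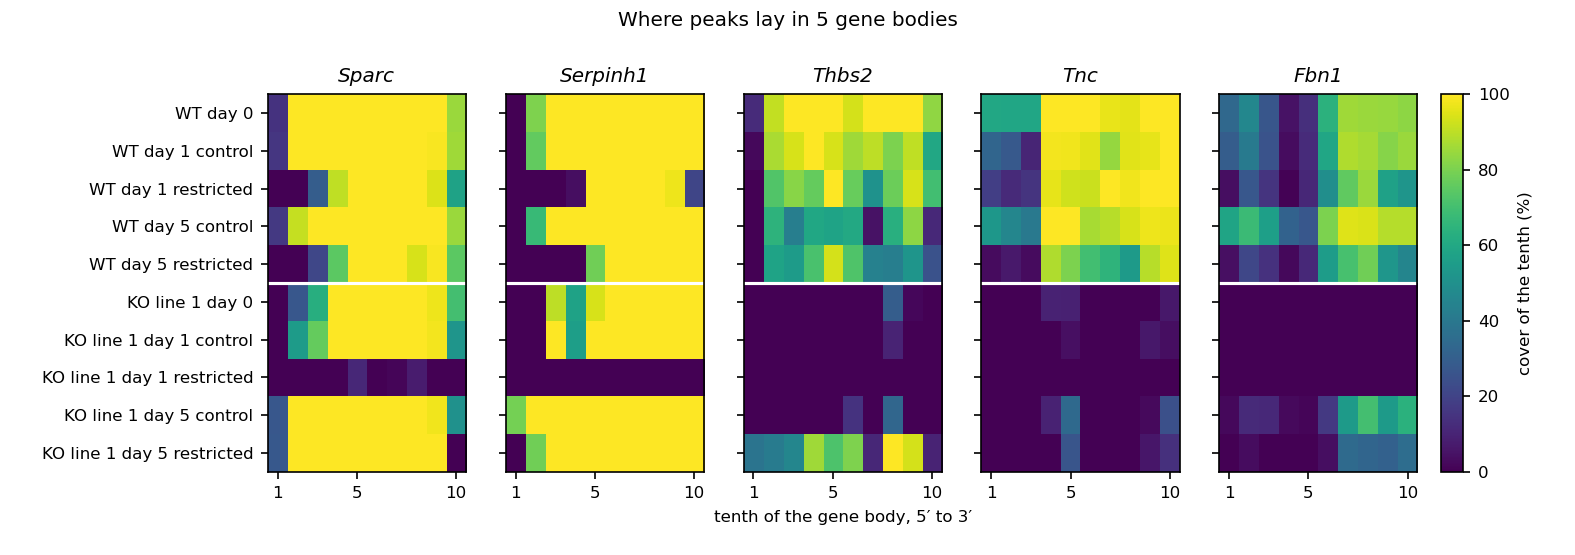
Cover (color, 0 to 100%) of 10 equal parts of the gene body from 5′ to 3′ (x axis) in Sparc, Serpinh1, Thbs2, Tnc and Fbn1, with a row for each condition: WT means of 2 replicates above the white line, single libraries of KO line 1 below it. Dark cells in parts 2 to 4 of Serpinh1 and part 2 of Sparc in the restricted WT rows are bright in the control rows. Part 1 of Serpinh1 is dark in every WT row. In Thbs2 parts 2 to 4 keep cover in the restricted WT rows, though at day 1 it is lower than in control medium.

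In KO line 1 the members fell into those that kept the mark and those that did not. Fn1, Thbs1, Serpinh1, Sparc and Lox had at least 50% cover in 4 of its 5 libraries. They ranked 1, 2, 21, 25 and 49 of 19304 genes by mean cover, and 1, 8, 19, 25 and 47 without the restricted day 1 library. Thbs2 (13.4%, rank 2029), Fbn1 (8.61%, rank 2895), Tnc (3.12%, rank 4743) and Postn (0%) did not. Without that library Thbs2 was at 16.7% (rank 2027), Fbn1 at 10.8% (rank 2893), Tnc at 3.89% (rank 4742) and Postn at 0%. The members with at least 50% cover were 5 of 9 at day 0, 5 at control day 1, 0 at restricted day 1, 5 at control day 5 and 6 at restricted day 5, where Thbs2 was the sixth and was at 2.82% with stricter peaks. The shares of all 19304 genes were 1.06%, 0.818%, 0.00%, 8.40% and 3.32%, and since the members were chosen on this measure nothing is read from the contrast.

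At day 5 several members had more cover in KO line 1 than in both WT libraries of the same condition. In control medium these were Fn1, Lox and Serpinh1, and 5.94% of the 9514 genes past the WT filter were above both WT libraries. Under restriction they were Fn1, Thbs1, Thbs2, Sparc, Lox and Serpinh1, and 9.99% of genes were. Thbs2 was above WT there through weak peaks, with 2.82% left at −log10 q of at least 3. At day 0 and day 1, 0 of the 9 members were above both WT libraries. The share of all genes was not counted there, and the lists of KO line 1 were shorter still (0.307 to 17.7 Mb), so nothing is read from this. The list of KO line 1 was shorter than every WT list in each condition (74.1 and 45.8 Mb at day 5).

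Marker genes of muscle and of other cell types were read in this line beside WT, without a test. Myod1, Des and Cdh15 had no peak in KO line 1 at day 0, and Chrna1 was at 4.13%. Of the 8 myoblast markers, 0 or 1 had at least 50% cover in a library of KO line 1, against 1 to 6 in WT, where the share of all genes reaching 50% in a library of KO line 1 was at most 8.40%. Of the 10 fibroblast markers, 0 to 2 did, against 0 to 1 in WT. Pdgfrb was at 60.1%, 46.8%, 0%, 92.6% and 91.3% in KO line 1 in the order of conditions used above. In WT it was higher at day 0 (73.8% and 78.0%) and control day 1 (51.9% and 55.4%) and lower at control day 5 (57.5% and 59.5%) and restricted day 5 (18.5% and 21.1%). Cd34 was at 22.4%, 24.2%, 0%, 55.8% and 57.8% in KO line 1 and at 0% to 10.2% in WT. Dcn was at 7.81% in KO line 1 at control day 5, below WT (34.7% and 26%), and at 47.6% at restricted day 5, above WT (12.8% and 11.2%). Dpt was at most 18.1% and Pdgfra at 0% in KO line 1, while Lum, Thy1, Tcf21, Ly6a and Meox1 were at 0 in all libraries of WT and KO line 1. The median cover of the fibroblast list was 0 in every library of both, and no adipocyte, endothelial or macrophage marker reached 50%. Their part in the result was not tested.

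The members also ranged widely in peak strength in WT. Strength is the authors' fold enrichment of the strongest peak in a gene, as a percentile of all peaks in the same list, averaged over the WT libraries with a peak. It was 99.9 for Fn1, 99.7 for Thbs1, 98.98 for Sparc, 98.6 for Serpinh1 and 88.8 for Lox. It was 94.7 for Tnc, 94.6 for Fbn1, 74.9 for Thbs2 and 40.9 for Postn. Members with and without cover in KO line 1 overlapped in strength, since Lox was below Tnc and Fbn1. Over the 4032 genes with a mean WT cover of at least 50%, strength and mean cover in KO line 1 had a weak Spearman correlation of 0.267, given as a description, since all genes share the same libraries. The relation was not even along the range: the median cover in KO line 1 was 5.60% for the 401 genes under the percentile of 80, 46.4% for the 51 genes with the strongest peaks, Fn1 and Thbs1 among them, and 25.8% for the 73 genes next in strength.

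**Figure D4:**
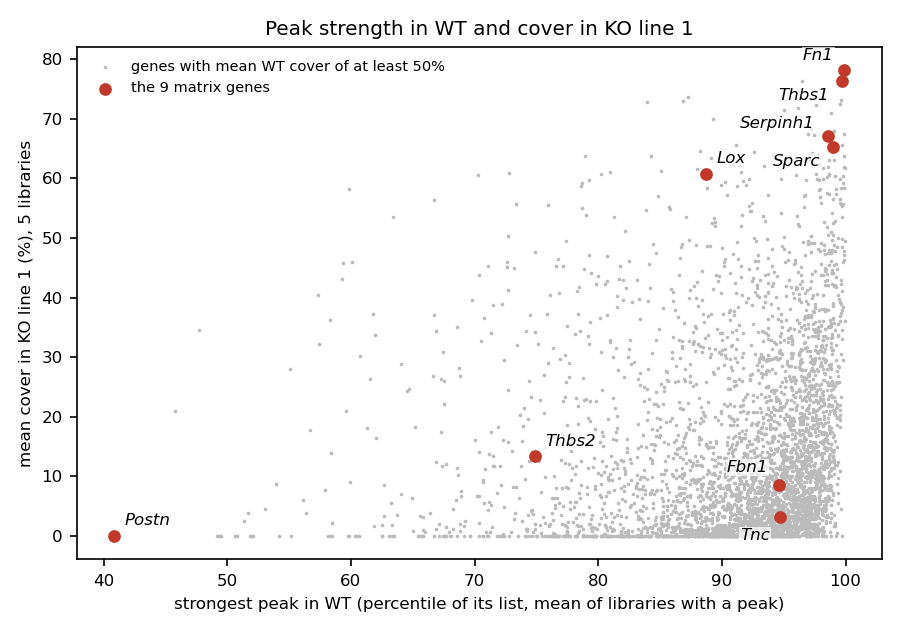
Percentile of the strongest WT peak within its list (x axis) against the mean cover in the 5 libraries of KO line 1 (y axis, percent); grey points are the 4032 genes with a mean WT cover of at least 50%, red points the 9 matrix genes. Fn1, Thbs1, Sparc and Serpinh1 sit in the upper right corner, Lox is at 60.8% with a lower strength (88.8), and Tnc and Fbn1 are low at a strength near 95.

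The genes most like Fn1 and Thbs1 were not matrix genes. Likeness was the mean absolute difference in cover over the 20 libraries. The nearest to Fn1 were Hspa9 (5.33 points), a mitochondrial chaperone, Ddb1 (5.81), a DNA damage protein, and Ddx17 (6.11), an RNA helicase. The nearest to Thbs1 were Ddx17 (3.78), the transcription factor Ets2 (3.95) and Hspa9 (4.17). Fn1 and Thbs1 were 6.44 points apart, and Ets2 shared with Thbs1 a partial cover in the library of 791 peaks (23.5%, beside 28.4%).

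Other genes of the matrix were counted from lists of their families, with the number called lower and higher of those tested. Under restriction the matrix glycoproteins, members included, had 10 of 21 lower and 0 higher at day 1, and 13 lower and 1 higher at day 5. Of all genes tested, 36.0% were called lower and 2.37% higher at day 1, and 41.5% and 4.34% at day 5. Their median differences were −10.9 and −14.0 points, beside −7.99 and −9.16 over all genes. Ltbp3, which anchors latent TGF-beta, fell from 78.5% ± 0.201 to 36.9% ± 9.48 at day 1 (SD, n = 2, limma adjusted p = 0.000419), and Efemp2, an elastic fibre protein, from 74.4% ± 1.82 to 36.2% ± 8.78. The glycoprotein called higher at day 5 was the basement membrane linker Nid1 (41.0% ± 1.86 to 53.1% ± 0.810, limma adjusted p = 0.0275).

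Enzymes of collagen folding and crosslinking, a list that holds Serpinh1, Sparc and Lox, had 13 of 23 lower and 0 higher on each day. The shares of all genes called lower were 36.0% and 41.5%. Median differences in the list were −17.4 and −15.1 points, beside −7.99 and −9.16 over all genes. The crosslinking enzyme Loxl1, a relative of Lox, fell from 81.2% ± 1.40 to 20.4% ± 2.25 at day 5 (SD, n = 2, limma adjusted p = 0.000409). P3h4, a member of a collagen lysine modifying complex, fell from 74.4% ± 3.90 to 21.8% ± 1.13 (adjusted p = 3.06e-05). Of 7 proteoglycans tested, 3 were lower at day 1 and 4 at day 5, near the shares of all genes, with medians of −4.27 and −18.3 points. The cell surface proteoglycan Gpc1 fell from 95.5% ± 0.792 to 37.0% ± 10.1 at day 1 (adjusted p = 5.45e-05).

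For the next lists, too, the shares of all genes are 36.0% lower and 2.37% higher at day 1, and 41.5% and 4.34% at day 5. Matrix receptors had 8 of 17 lower and 0 higher at day 1, and 13 lower and 2 higher at day 5. The hyaluronan receptor Cd44 fell from 94.2% ± 2.38 to 49.2% ± 5.41 at day 1 (SD, n = 2, limma adjusted p = 4.82e-05). The integrin gene Itgb8, counted among those higher, was at 0.423% ± 0.598 in control and 19.2% ± 0.0403 in restricted cells at day 5. With a mean WT cover of 5.003% it passed the 5% filter only through that restricted group, so its test is not read as support. Matrix proteases and their inhibitors had 10 of 22 lower at day 1, and 17 lower and 1 higher at day 5. The TGF-beta and YAP axis, which drives many matrix genes, had 12 of 23 lower at day 1 and 19 at day 5, and its median difference at day 5 was −25.1 points. Its target gene Ccn1 fell from 75.1% ± 2.98 to 5.67% ± 8.02 at day 5 (adjusted p = 0.000280).

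From day 0 to day 5 in control medium genes of the lists were called both ways, as 12.2% of all genes were called higher and 15.6% lower. Of the glycoproteins 3 were higher and 7 lower, of the folding and crosslinking enzymes 5 and 5, and of the receptors 5 and 1. Proteoglycans had 3 higher and 0 lower, proteases and inhibitors 5 and 2, and the TGF-beta and YAP axis 7 and 3. Like Thbs2, Nid1 fell, from 82.6% ± 1.80 to 41.0% ± 1.86 (SD, n = 2, limma adjusted p = 6.86e-05). The dystroglycan gene Dag1, a laminin receptor of muscle, rose from 38.1% ± 4.41 to 88.5% ± 2.04 (adjusted p = 3.81e-05). The metalloprotease gene Mmp15, counted among those higher, was at 0% in both libraries of day 0 and at 59.9% ± 4.10 at control day 5. With a mean WT cover of 15.9% it passed the 5% filter only through control day 5, so its test is not read as support. Unlike Lox, whose day 0 to day 5 difference of 6.82 points did not pass (adjusted p = 0.384), its relative Loxl3 fell from 76.4% ± 1.94 to 23.1% ± 5.83 (adjusted p = 0.000335).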

How the data were processed

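The files were 20 peak lists, 1 per library, in the 9-column broad-peak layout. Each peak carries a fold enrichment and its −log10 p- and q-values, all computed by the authors; their deposited score column was not used. Per the submitters' processing notes the build was GRCm38. The peak caller, its control and its filters are not given in the sources used here. Per the labels' protocols, Drosophila chromatin was added as a spike-in and reads were single-end; no spike-in scaling was applied here, and the input was not used. Peak names in the lists call the KO libraries replicates 1 and 2 rather than lines, and the labels were followed.

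Peaks were merged within a library, and the covered percent of each RefSeq gene body (GRCm38.p6) was computed for 19304 genes. The interval arithmetic was tested on simulated data. Cover in the 10 WT libraries was tested with limma 3.58.1 (R 4.3.3; lmFit, contrasts.fit, eBayes with trend and robust settings) in a model of 5 groups, for 5 contrasts, in genes with a mean WT cover of at least 5%. Of 9514 such genes 9513 could be tested. Adjusted p-values are Benjamini-Hochberg values over these genes, called under 0.05. On simulated data with 200 genes changed by 30 points, 57.0% (day 1 restriction) and 58.5% (day 5 restriction) were recovered, and 18.5% in the contrast between days. No peak list has counts, so no count test was made.

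Members, gene lists and tests were chosen with earlier results of these data known. The text names all members, the 3 genes nearest to Fn1 and to Thbs1, genes beside them in the ranking of KO line 1, and from each list some of the 2 called genes with the largest difference in each direction. Alternatives were stricter peaks, lists of one covered length, joined peaks, other filters and scales, a replicate block, and each WT library left out. Some genes of the lists are not reported here by name.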

Additional observations from a re-analysis of the deposited data

Results flagged for a closer look

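In 7 cases every WT library of a condition moved one way while the single library of a KO line moved the other. The difference between WT and the line was not tested in any of them, since a line has 1 library per condition. Under restriction at day 5, Thbs1 fell in WT from a mean of 93.5% to 83.2% and was 2.73 points higher in KO line 1, and Lox went from 79.5% to 42.0% in WT and was 2.32 points higher in KO line 1. Tnc went from 80.4% to 55.5% in WT while KO line 2 was 0.108 points higher, at 0.441% and 0.549%, each from 1 short peak.

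From day 0 to control day 1, Thbs1 went from 94.7% to 91.0% in WT and was 15.7 points higher in KO line 1. Serpinh1 went from 88.1% to 87.6% in WT, a difference of under 1 point that did not pass, and was 1.42 points higher in KO line 1. From day 0 to control day 5, Serpinh1 was 23.8 points higher in KO line 1 (74.1% to 97.9%) while WT went from 88.1% to 86.8%, which did not pass. Thbs2 fell from 88.1% to 44.8% in WT and was 1.65 points higher in KO line 1, at 3.12% and 4.76%. No group was large enough for a check of single outlying samples.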

How the results depend on the processing

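Of 11 member differences called in WT, 8 kept their direction and call in all 19 alternatives: Sparc and Serpinh1 on both days, Tnc, Fbn1 and Lox at day 5, and Thbs2 from day 0 to day 5. The other 3, Thbs1 on both days and Fbn1 from day 0 to day 5, did not. The cause was not tested. A replicate block gave 3440, 4177, 466, 2457 and 399 called genes (restriction at day 1 and day 5, day 0 to day 1, day 0 to day 5, and restriction between days), against 3646, 4359, 636, 2643 and 496 without it. Same-numbered replicates did not deviate together (correlations of −0.439 to 0.0614), so no pairing was assumed, and the block changed no member's call.

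Counts of called genes moved by over 1.5 times in these settings: lists of one covered length, 2292 for restriction at day 1 and 196 for day 0 to day 1; peaks of −log10 q of at least 3, 2896 for restriction at day 5; centring on the median, 335 for day 0 to day 1; only the libraries compared, 0 for day 0 to day 1 with limma (1882 at an unadjusted p under 0.05) and 1658 for day 0 to day 5; a mean cover of at least 20%, with fewer genes tested, 1748 for day 0 to day 5 and 190 between days; the arcsine scale, 307 between days. Leaving out 1 WT library gave 2356 to 3994 and 2799 to 4655 called genes for restriction at day 1 and day 5, 138 to 1010 for day 0 to day 1, 1844 to 2646 for day 0 to day 5 and 215 to 647 between days. The lowest came without restricted day 1 replicate 2, control day 5 replicate 1, control day 1 replicate 1, and restricted day 5 replicate 2 between days.

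Signs turned as follows, in points. Centring gave, for restriction at day 1, Fn1 11.96, Thbs1 4.32, Thbs2 6.93, Tnc 13.8, Fbn1 1.697 and Lox 6.75; at day 5, Fn1 13.5 and Thbs1 6.44; for day 0 to day 1, Fn1 8.35, Thbs1 4.79, Fbn1 6.87 and Serpinh1 8.005, and for Sparc 8.61 without a change of sign; for day 0 to day 5, Thbs1 1.13, Sparc 1.72 and Serpinh1 1.07; between days, Sparc 1.44. One covered length gave Thbs2 5.81 and Lox 9.03 (restriction at day 1), Fbn1 8.59 (day 0 to day 1), Lox −1.10 (day 0 to day 5), Thbs1 −2.49 and Sparc 0.239 (between days). Joined peaks gave Sparc 1.78 (day 0 to day 5), Fn1 −0.00442 and Sparc 2.35 (between days); stricter peaks gave Sparc 3.13 between days; the arcsine scale gave Fn1 −0.00209, Thbs1 −0.00686 and Sparc 0.00279 between days. Leaving out single libraries gave Tnc −5.92 to 3.05 (restriction at day 1), Sparc −0.774 to 1.04 and Fbn1 −6.39 to 3.16 (day 0 to day 1), Thbs1 −2.59 to 0.0918 and Sparc −2.37 to 1.05 (day 0 to day 5), and Fn1 −0.614 to 0.736, Thbs1 −2.97 to 4.24 and Sparc −3.88 to 3.79 (between days).

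The median cover of the 9 members in KO line 1 went from 71.6% to 59.4% at day 0 with stricter peaks and to 75.5% with joined peaks, and from 52.3% to 18.7% at control day 1 with stricter peaks. Stricter peaks also moved single members in that line by over 1.5 times, among them: at restricted day 5 Thbs2 went from 57.9% to 2.82%, Fbn1 from 14.1% to 1.56% and Tnc from 4.63% to 0%, at control day 5 Fbn1 from 28.9% to 16.3% and Tnc from 7.05% to 0.794%, and at restricted day 1 Fn1 from 9.003% to 0% and Thbs1 from 28.4% to 18.4%. The depth of the libraries is unknown and limits how far low cover in a short list can be read.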

Other observations

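Mmp2 and Cd34 had more cover in KO line 1 than in WT at every unrestricted time. They were picked after their values were seen, without a test. Other fibroblast markers, such as Pdgfrb at day 0 and Dcn at control day 5, were below WT. Of the proteases and inhibitors, the list of Mmp2, Timp1 was below WT by mean cover (2.38% in KO line 1 and 29.8% in WT). Mmp2, which degrades basement membrane collagen and gelatin, was covered to 61.0% at day 0, 73.1% at control day 1, 4.07% at restricted day 1, 96.0% at control day 5 and 96.3% at restricted day 5 in KO line 1. In WT it was at 1.52% and 5.55% at day 0, 1.63% and 0% at control day 1, 40.3% and 27.1% at control day 5, and at most 3.08% under restriction. Cd34, a surface protein of stromal and vascular progenitors, was at 22.4% at day 0 and 55.8% at control day 5 in KO line 1, and at 0% in both WT libraries of day 0 and 10.2% and 4.19% at control day 5.

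Other genes of the matrix lists had cover in KO line 1. Amotl2, of the YAP axis, was at 72.5% at day 0 and 88.1% at control day 5, and the procollagen processing enhancer Pcolce at 52.8% and 57.3%; each had at least 50% cover in 4 of 5 libraries. The perlecan gene Hspg2 and the fibronectin receptor subunit Itga5 reached that in 3 of 5, with 50.4% and 52.8% at day 0, 40.6% and 34.9% at control day 1, and 74.3% and 84.7% at control day 5. Others did not: the crosslinking enzyme Loxl1 was at 1.34% and 23.0%, and the YAP target Ccn2 at 0% in all 5 libraries of the line.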
